A study of Mus musculus with 8 samples.

Results

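The genes described here carry carbon into and around the tricarboxylic acid (TCA) cycle of mouse brain, burn fatty acids by beta oxidation, and use ketone bodies. The list held 43 genes, and its members were all probes whose listed gene symbol was one of them. Of the 43 genes, 42 had a probe, and together they had 44 of the 23473 probes on the array. Mpc2 had no listed probe and is not analysed here. Pdk1 and Mpc1 had 2 probes each. One probe listed as Pdk1, M400017725, carries a gene identifier that is not among the mouse genes of the reference table, so what it reads is uncertain. On every one of the 8 arrays all 44 probes exceeded the blank limit (blank spots, their mean with 2 SD added), so none was lost to the filter on dim probes. The probes of Acads, of the second Pdk1 probe and of Pdk4 came closest to it, at 1.90, 2.06 and 2.40 times the limit on their lowest array.

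Male C57Bl/6J mice, 9 weeks old by the labels, drank water (control, sampled at day 0, 2 mice), or trehalose, a sugar of 2 joined glucose units, for 1 day (3 mice) or for 10 days (3 mice). All were fasted for 6 h, anesthetized and perfused before sampling, so each group was measured in a fasted state and none in a fed one. RNA of each mouse was read on 1 array, from tissue that the sample protocol places in the cerebral cortex and neocortex and the design text in the left hemisphere. With no water mice at 1 or 10 days, trehalose and the time of sampling cannot be told apart. Mice were housed 3 to a cage, and cage is not recorded per mouse.

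Pyruvate from glucose enters mitochondria through the pyruvate carrier and is turned into acetyl-CoA by the pyruvate dehydrogenase complex, which pyruvate dehydrogenase kinases switch off and phosphatases switch on. Acetyl-CoA is then oxidised in the TCA cycle, and pyruvate carboxylase refills the cycle, in brain mainly in astrocytes. The brain relies on glucose, burns few fatty acids, and turns to ketone bodies from the liver when fasting is long. In liver, heart and muscle, fasting raises Pdk4 and Cpt1a through the PPAR nuclear receptors.

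None of the 44 probes passed the test in any comparison, and neither did any probe of the array (limma, adjusted p under 0.05, 0 of 21583 probes, 0%). The measured ratios of the members to control lay between 0.868 and 1.18 at 1 day and between 0.925 and 1.16 at 10 days. Idh1 was the one member whose 6 trehalose arrays all exceeded both controls, with a ratio of 1.18 at 1 day and 1.16 at 10 days. The same separation was seen for 2.75% of all tested probes, against 2.27% of the members. All 10-day arrays of Dld lay above those of both other groups, a pattern not counted over all tested probes. For Pdhb the 1-day arrays lay below both controls and the 10-day arrays above, but its intervals against control spanned 0 at both times. Groups did not overlap for 18.2% of all tested probes at 1 day and for 13.4% at 10 days. With the scanner's local background value in the correction, the changes between the times turned to -0.18 for Dld and -0.37 for Pdhb. The genes that respond to fasting elsewhere, Pdk4 and Cpt1a, and the ketone enzymes Bdh1 and Oxct1 had changes whose intervals spanned 0 at both times.

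Promoter stretches from RefSeq (build GRCm38.p6) are shown for 5 members: Idh1, because its groups did not overlap, Mdh1, Fh1 and Idh3g, because they varied together across arrays, and Pdk4, the kinase known for its response to fasting. Each runs 5′ to 3′ on the minus strand, from 250 bases before a start site to 50 after it. Capitals mark matches on either strand to any of the motifs named next. Idh1 has a second listed start site, not shown.
Idh1 chr1:65186430-65186729: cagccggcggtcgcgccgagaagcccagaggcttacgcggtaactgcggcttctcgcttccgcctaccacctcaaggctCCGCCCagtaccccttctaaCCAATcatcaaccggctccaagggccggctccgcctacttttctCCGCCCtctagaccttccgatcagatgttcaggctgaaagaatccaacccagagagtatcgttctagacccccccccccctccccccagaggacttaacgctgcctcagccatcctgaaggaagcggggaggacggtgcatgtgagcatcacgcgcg
Mdh1 chr11:21571885-21572184: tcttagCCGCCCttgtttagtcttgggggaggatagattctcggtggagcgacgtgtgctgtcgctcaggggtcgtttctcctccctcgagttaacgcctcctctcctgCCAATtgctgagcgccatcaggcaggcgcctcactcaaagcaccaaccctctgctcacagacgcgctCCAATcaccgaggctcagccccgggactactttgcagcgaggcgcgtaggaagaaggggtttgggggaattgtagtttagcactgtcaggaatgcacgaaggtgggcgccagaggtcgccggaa
Fh1 chr1:175625586-175625885: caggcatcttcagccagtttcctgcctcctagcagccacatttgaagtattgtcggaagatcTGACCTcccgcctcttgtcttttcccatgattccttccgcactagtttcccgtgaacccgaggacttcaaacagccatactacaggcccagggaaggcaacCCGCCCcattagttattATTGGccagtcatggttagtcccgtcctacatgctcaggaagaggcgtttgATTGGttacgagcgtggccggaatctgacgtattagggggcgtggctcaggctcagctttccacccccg
Idh3g chrX:73786848-73787147: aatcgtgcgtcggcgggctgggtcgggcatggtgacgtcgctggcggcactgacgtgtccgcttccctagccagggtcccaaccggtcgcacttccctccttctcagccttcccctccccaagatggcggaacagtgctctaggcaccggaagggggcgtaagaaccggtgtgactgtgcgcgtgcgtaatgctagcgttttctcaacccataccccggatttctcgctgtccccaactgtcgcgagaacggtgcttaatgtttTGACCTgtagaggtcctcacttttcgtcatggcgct
Pdk4 chr6:5496229-5496528: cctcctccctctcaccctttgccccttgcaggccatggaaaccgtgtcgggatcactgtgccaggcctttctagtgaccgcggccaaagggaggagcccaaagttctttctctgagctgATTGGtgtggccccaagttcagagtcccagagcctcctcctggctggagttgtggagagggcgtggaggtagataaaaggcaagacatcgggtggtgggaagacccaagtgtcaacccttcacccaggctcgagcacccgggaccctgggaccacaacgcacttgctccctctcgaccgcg

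Of the 43 genes, 41 had a promoter entry. All start sites of a gene were searched, so genes with more of them had more chances to match. The genes compared were all those with an entry, whether or not the array had a probe for them. The GC box GGGCGG was found in 30 of the 41 genes (73.2%), against 38.2% of all 27025 genes with an entry. The CCAAT box was found in 22 (53.7%), against 41.1% of all genes, with 1 match in the Idh1 and Pdk4 stretches above and 2 each in those of Mdh1 and Fh1. The NRF1 site (GCGCA, any base, GCGC), bound by a regulator of mitochondrial genes, was found in 4 (9.76%), those of Dld, Etfb, Etfdh and Sucla2, against 5.19% of all. The nuclear receptor half-site AGGTCA was found in 11 (26.8%), among them Cpt1a, Fh1 and Idh3g, against 18.1% of all. The longer sites of the estrogen-related receptor, TNAAGGTCA, and of the PPAR receptors, AGGTCA, any base, AGGTCA, held the half-site and were found in 0 of the 41, against 1.43% and 0.0481% of all genes. These matches describe letters in a short window and say nothing about binding.

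Values below are log2 intensities after background correction and quantile normalisation. They compare arrays for 1 probe and say nothing about which gene is more abundant. The 44 probes were bright, with a median of 9.29 against 6.83 over all tested probes. Their median SD within groups was 0.10, against 0.064 over all tested probes. The correction adds a constant that narrows the spread of dim probes more than that of bright ones, and its part in this difference was not tested. Across all 8 arrays a member's values spanned between 0.11 (Pdk2) and 0.81 (Idh3g).

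**Figure D1:**
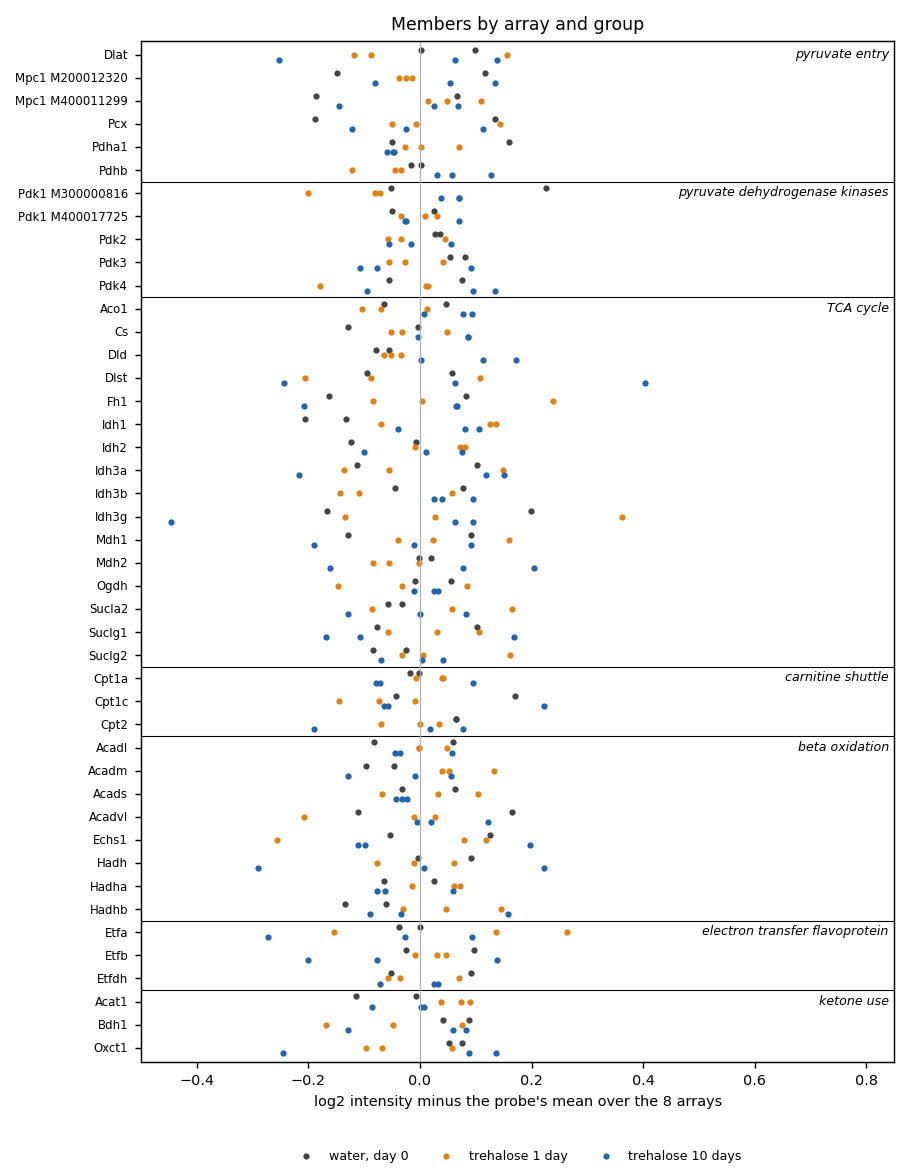
Each point is 1 array: the log2 intensity of a probe (rows, grouped by role) minus that probe's mean over the 8 arrays, for water at day 0 (grey), trehalose 1 day (orange) and trehalose 10 days (blue). Groups lie over each other for most probes. Idh1 has both controls at the left, and Idh3g has the widest range, 0.81.

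The first step is the entry of pyruvate. Pdhb, the beta subunit of the pyruvate dehydrogenase E1 enzyme, measured 10.25 and 10.27 in control, 10.15, 10.24 and 10.22 after 1 day, and 10.40, 10.33 and 10.30 after 10 days. All 3 arrays at 1 day lay below both controls and all 3 at 10 days above both. Against control its log2 change was -0.06 at 1 day (95% interval -0.16 to 0.04) and 0.08 at 10 days (-0.02 to 0.18), and between the times, 10 days minus 1 day, it was 0.14 (0.05 to 0.23). The last had the lowest unadjusted p of any member in that comparison (0.00915 by limma), and its adjusted p was 1.00, and this change was -0.37 when the scanner's local background value of each spot entered the background correction. Pdha1, the alpha subunit of the same enzyme and the site that the kinases phosphorylate, measured 10.09 and 10.30 in control, 10.14, 10.21 and 10.11 after 1 day, and 10.08, 10.09 and 10.09 after 10 days. The 2 controls spanned all other Pdha1 arrays but 1, the lowest one at 10 days, and its changes were -0.04 at 1 day (-0.18 to 0.11) and -0.11 at 10 days (-0.25 to 0.04). The 2 subunits of 1 enzyme thus had changes of opposite sign at 10 days.

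Dlat, the E2 core of the complex, had a change of -0.07 at each time, with intervals from -0.36 to 0.23 at 1 day and from -0.36 to 0.22 at 10 days. Pcx, pyruvate carboxylase, measured 8.37 and 8.04 in control, 8.38, 8.22 and 8.18 after 1 day, and 8.34, 8.21 and 8.11 after 10 days. In each group the array labelled replicate 1 was the highest for Pcx, and the groups overlapped. Its changes were 0.06 (-0.20 to 0.31) at 1 day and 0.02 (-0.24 to 0.27) at 10 days. Mpc1, a subunit of the mitochondrial pyruvate carrier, was read by 2 probes, with changes at 1 day of 0.12 and -0.01 and at 10 days of 0.04 and 0.05.

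Of the kinases that shut the complex off, Pdk1, a kinase known to be induced by low oxygen, had the largest difference at 1 day. Its probe M300000816 measured 7.34 and 7.62 in control, 7.31, 7.32 and 7.19 after 1 day, and 7.46, 7.43 and 7.46 after 10 days. All arrays at 1 day lay below both controls, but the nearest values, 7.32 at 1 day and 7.34 in control, were close together. The log2 change at 1 day was -0.20 (-0.39 to -0.02, adjusted p = 1.00 by limma), and it was -0.07 without control replicate 2 and -0.34 without control replicate 1. Between the times, 10 days minus 1 day, it was 0.18 (0.01 to 0.34). The other probe listed as Pdk1 spanned 0.12 over all arrays and had a change of 0.01 at 1 day (-0.09 to 0.12).

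Pdk4 measured 6.82 and 6.95 in control, 6.70, 6.89 and 6.89 after 1 day, and 6.78, 7.01 and 6.97 after 10 days. The 3 groups overlapped, with changes of -0.06 at 1 day (-0.27 to 0.14) and 0.04 at 10 days (-0.17 to 0.24). Pdk4 was among the dimmest members, where the added constant compresses changes most. Pdk3, a kinase with high activity against the complex, measured 8.34 and 8.31 in control, 8.23, 8.20 and 8.30 after 1 day, and 8.18, 8.35 and 8.15 after 10 days. All 1-day arrays of Pdk3 lay below both controls, with a change of -0.08 (-0.23 to 0.07), and at 10 days 1 array lay above both. Pdk2, the most widely expressed kinase, was the steadiest member, with changes of -0.05 at 1 day (-0.16 to 0.06) and -0.04 at 10 days (-0.15 to 0.07).

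In the TCA cycle and its cytosolic partners, Idh1 had the lowest p at 1 day of the 16 genes. It encodes the isocitrate dehydrogenase of cytosol and peroxisomes, which makes NADPH outside the cycle. Idh1 measured 7.91 and 7.99 in control, 8.05, 8.25 and 8.26 after 1 day, and 8.20, 8.23 and 8.08 after 10 days. Every trehalose array lay above both controls, the closest pair being 8.05 after 1 day and 7.99 in control. The log2 change was 0.23 at 1 day (0.06 to 0.40), 0.22 at 10 days (0.05 to 0.39) and 0.23 for both times together (0.07 to 0.38, unadjusted p = 0.00963, adjusted p = 1.00 by limma). With the local background these were 0.72, 0.74 and 0.73. The 2 comparisons with control share the 2 control arrays. Between the times, 10 days minus 1 day, it was -0.01 (-0.17 to 0.14). Its means were 7.95 ± 0.052 in control (SD, n = 2), 8.18 ± 0.12 after 1 day and 8.17 ± 0.078 after 10 days (SD, n = 3 each). The same separation, every trehalose value above each control value, was seen for 2.75% of all tested probes.

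Dld, the E3 subunit that the pyruvate and 2-oxoglutarate dehydrogenase complexes share, measured 10.26 and 10.24 in control, 10.26, 10.25 and 10.28 after 1 day, and 10.48, 10.43 and 10.31 after 10 days. The 10-day arrays of Dld lay above all 5 others, which stood within a narrow band, a pattern not counted over all tested probes. Its change was 0.16 at 10 days against control (0.04 to 0.28) and 0.15 at 10 days minus 1 day (0.04 to 0.25), each with an adjusted p of 1.00 by limma, and 0.02 at 1 day (-0.10 to 0.14). With the local background the change of Dld between the times was -0.18. Cs, citrate synthase, which opens the cycle, measured 10.66 and 10.79 in control, 10.76, 10.74 and 10.84 after 1 day, and 10.88, 10.88 and 10.79 after 10 days. The groups overlapped narrowly at 10 days, and the changes of Cs were 0.05 at 1 day (-0.07 to 0.18) and 0.12 at 10 days (-0.01 to 0.25). Aco1, the cytosolic aconitase that doubles as an iron sensor, measured 7.62 and 7.73 in control, 7.62, 7.70 and 7.58 after 1 day, and 7.78, 7.70 and 7.77 after 10 days. Its change between the times was 0.11 (0.00 to 0.22), and 1 array at 10 days lay just below 1 at 1 day.

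**Figure D2:**
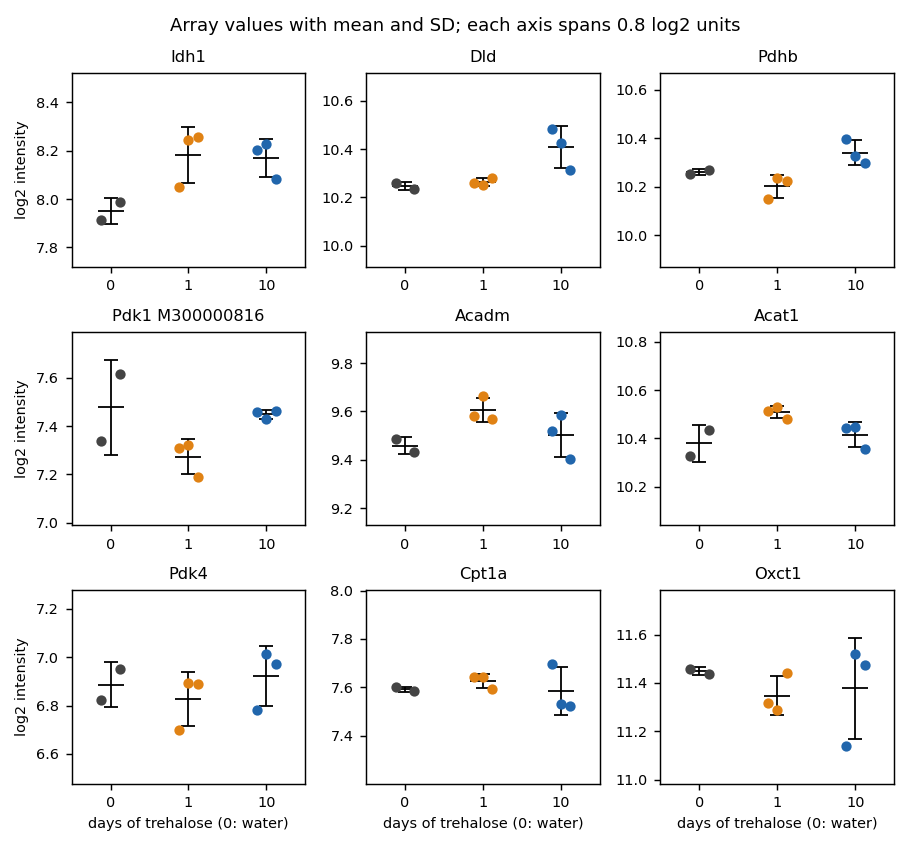
Log2 intensity of 9 members by days of trehalose (0 is water), with 1 point per array and the mean and SD of each group, on axes that each span 0.8. Both Idh1 controls, 7.91 and 7.99, lie below all 6 trehalose arrays, the 10-day arrays of Dld lie above the other 5, and Pdk4, Cpt1a and Oxct1 overlap between groups.

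The other members of the cycle had groups that overlapped in all 4 comparisons. Idh2, the mitochondrial NADP-linked isocitrate dehydrogenase, had changes of 0.11 at 1 day (-0.03 to 0.26) and 0.06 at 10 days (-0.08 to 0.21). The 3 subunits of the NAD-linked enzyme of the cycle differed in spread: Idh3b spanned 0.24 over the 8 arrays, Idh3a 0.37 and Idh3g 0.81. Their changes at 1 day were -0.08 for Idh3b, -0.01 for Idh3a and 0.07 for Idh3g, and at 10 days 0.04, 0.02 and -0.11. The interval of Idh3g at 10 days ran from -0.59 to 0.36, so these arrays say least about that subunit.

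Ogdh, the first enzyme of the 2-oxoglutarate complex, had changes of -0.05 at 1 day and -0.01 at 10 days, and Dlst, its E2 core, of -0.04 and 0.09. Dlst ranged over 0.65, with its lowest value, 9.66, and its highest, 10.31, both among the 10-day arrays. Succinyl-CoA ligase is built from the shared subunit Suclg1 and either Sucla2, for ATP, or Suclg2, for GTP. Sucla2 had changes of 0.09 at 1 day and 0.03 at 10 days, Suclg2 of 0.10 and 0.05, and Suclg1 of 0.01 and -0.05. Fh1, fumarase, had changes of 0.09 and 0.01. The malate dehydrogenases Mdh1, of the cytosol, and Mdh2, of mitochondria, had changes of 0.07 and -0.06 at 1 day and of -0.02 and 0.03 at 10 days. The intervals of all these genes spanned 0.

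Fatty acids enter mitochondria through the carnitine shuttle. Cpt1a, its rate-limiting transferase, measured 7.60 and 7.58 in control, 7.64, 7.64 and 7.59 after 1 day, and 7.70, 7.53 and 7.52 after 10 days. Of its 10-day arrays, 2 lay below both controls and 1 above, and the changes of Cpt1a were 0.03 at 1 day (-0.10 to 0.17) and -0.01 at 10 days (-0.14 to 0.12). Cpt1c, the brain form, which sits in the endoplasmic reticulum of neurons and has little transferase activity, measured 8.84 and 9.06 in control, 8.88, 8.81 and 8.74 after 1 day, and 8.83, 9.11 and 8.82 after 10 days. Its groups overlapped, with changes of -0.14 at 1 day (-0.37 to 0.10) and -0.03 at 10 days (-0.26 to 0.20). Cpt2, the inner-membrane partner, measured 7.11 in both controls, 6.98, 7.05 and 7.08 after 1 day, and 6.86, 7.12 and 7.07 after 10 days. Its 1-day arrays all lay below control, with a change of -0.08 (-0.25 to 0.10), and its change at 10 days was -0.10 (-0.27 to 0.08).

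In beta oxidation, Acadm, the medium-chain acyl-CoA dehydrogenase, measured 9.48 and 9.43 in control, 9.58, 9.66 and 9.57 after 1 day, and 9.52, 9.58 and 9.40 after 10 days. The 1-day arrays lay above both controls, and the 10-day arrays lay on both sides of them. Its change was 0.15 at 1 day (0.01 to 0.28, adjusted p = 1.00 by limma) and 0.04 at 10 days (-0.09 to 0.18). With the local background it was 0.49 at 1 day. Hadhb, the thiolase subunit of the trifunctional protein for long chains, measured 9.32 and 9.25 in control, 9.43, 9.36 and 9.53 after 1 day, and 9.35, 9.30 and 9.54 after 10 days. Its 1-day arrays lay above both controls, with changes of 0.15 at 1 day (-0.04 to 0.34) and 0.11 at 10 days (-0.08 to 0.30). Its partner subunit Hadha had changes of 0.06 at 1 day (-0.07 to 0.19) and -0.01 at 10 days (-0.14 to 0.12).

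The other acyl-CoA dehydrogenases, sorted by the chain length they take, were close to control. Acadvl, for very long chains, had changes of -0.09 at 1 day and 0.02 at 10 days, Acadl, for long chains, of 0.03 and 0.00, and Acads, for short chains, of 0.01 and -0.05. Echs1, the short-chain enoyl-CoA hydratase, had changes of -0.06 and -0.04, and Hadh, the short-chain 3-hydroxyacyl-CoA dehydrogenase, of -0.05 and -0.06. Hadh had its highest array, 9.00, and its lowest, 8.48, both among the 10-day mice. The electron transfer flavoprotein hands electrons from these dehydrogenases to the respiratory chain, and its subunits Etfa and Etfb had changes of 0.10 and -0.01 at 1 day and of -0.05 and -0.08 at 10 days. Its oxidoreductase Etfdh had changes of -0.03 and -0.02. The intervals of all 8 genes in this paragraph spanned 0 in both comparisons with control.

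Ketone bodies are used by Bdh1, which oxidises 3-hydroxybutyrate, Oxct1, which activates acetoacetate and sets ketone use outside the liver, and Acat1, the thiolase that releases acetyl-CoA and also acts on isoleucine. Acat1 measured 10.33 and 10.43 in control, 10.51, 10.53 and 10.48 after 1 day, and 10.44, 10.45 and 10.36 after 10 days. Its 1-day arrays lay above all 5 others, a pattern not counted over all tested probes. The change was 0.13 at 1 day (0.02 to 0.24, adjusted p = 1.00 by limma), 0.04 at 10 days (-0.08 to 0.15) and -0.09 at 10 days minus 1 day (-0.19 to 0.01). At 1 day it was 0.07 without control replicate 1, and -0.76 with the local background. Oxct1 measured 11.46 and 11.44 in control, 11.32, 11.29 and 11.44 after 1 day, and 11.14, 11.52 and 11.47 after 10 days. Its groups overlapped, with changes of -0.10 at 1 day (-0.35 to 0.15) and -0.07 at 10 days (-0.32 to 0.18). Bdh1 measured 9.02 and 9.06 in control, 8.93, 9.05 and 8.81 after 1 day, and 9.06, 8.85 and 9.03 after 10 days. It overlapped too, with changes of -0.11 at 1 day (-0.31 to 0.08) and -0.06 at 10 days (-0.26 to 0.14). Of the 3 ketone enzymes, Acat1 alone had positive changes against control.

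**Figure D3:**
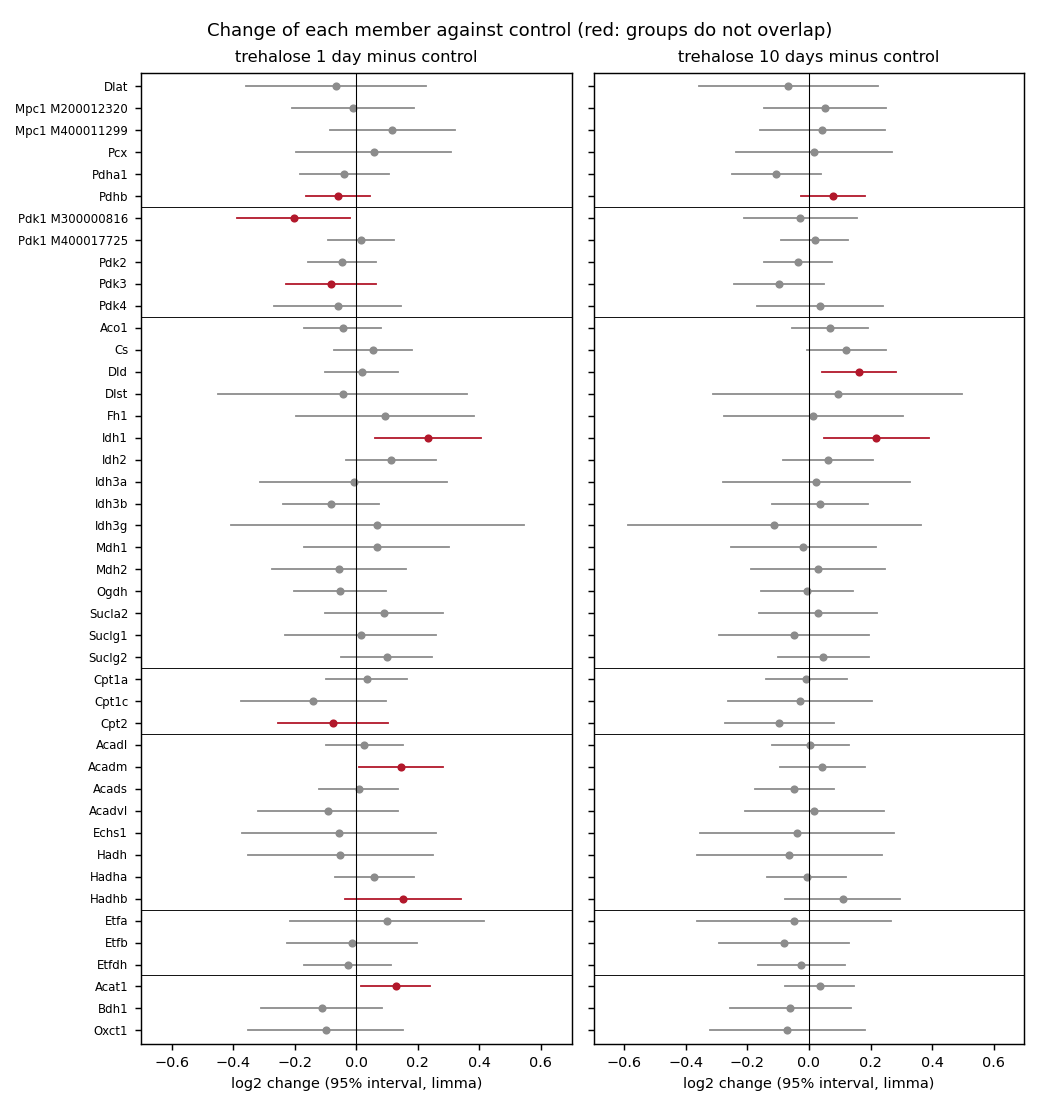
Log2 change of each of the 44 probes against control with its 95% interval from limma, at 1 day (left) and 10 days (right), in the same row order as the plot of members by array. Red marks probes whose groups did not overlap, 8 at 1 day and 3 at 10 days. Idh1 is red in both panels, at 0.23 and 0.22.

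Counted over the list, the members were split as the array was. At 1 day 21 of the 44 probes were higher than control and 23 lower, with a median log2 change of -0.01, and 49.7% of all tested probes were higher. At 10 days 23 were higher and 21 lower, with a median of 0.01, and 48.6% of all tested probes were higher. Between the times 20 were higher at 10 days than at 1 day and 24 lower, against 48.6% higher of all. The 16 genes of the cycle had 10 higher at 1 day and 12 higher at 10 days, with a median of 0.04 and 0.03, and all 3 genes of the carnitine shuttle and all 3 of the electron transfer flavoprotein were below control at 10 days, with medians of -0.03 and -0.05. The intervals of single members reached a median of 0.19 to either side, but they do not measure the spread of a list's median. The median deviation of all 44 members had a pooled SD of 0.027 between arrays. The shifts of the role groups were not tested.

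At an unadjusted p under 0.05 by limma there were 4 members at 1 day, Idh1, Acat1, Acadm and Pdk1, against 3.65% of all tested probes. The first 3 were higher, against 2.02% of all, and Pdk1 lower, against 1.62%. At 10 days there were 2, Idh1 and Dld, against 2% of all, and both were higher, against 1.23%. Between the times there were 4, Pdhb, Dld, Pdk1 and Aco1, against 3.5% of all, and each was higher at 10 days, against 1.85%. For both times together against control there was 1, Idh1, against 2.63%. Groups did not overlap for 8 members at 1 day, against 18.2% of all tested probes, which is the same share: 4 were higher, against 8.97% of all, and 4 lower, against 9.19%. They did not overlap for 3 members at 10 days, against 13.4%, all of them higher, against 6.46%. Between the times they did not overlap for 5, against 8.39%, with 3 higher at 10 days, against 4% of all, and 2 lower, against 4.39%. Across the 44 probes the sign of a change at 1 day and at 10 days is not independent, because both use the same 2 controls.

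Other genes of the same pathways were looked up in a fixed list of 69, of which 59 were tested on 62 probes, and none passed the adjusted threshold. Of the 62 probes, 34 were higher and 28 lower at 1 day, and 27 higher and 35 lower at 10 days. At an unadjusted p under 0.05, Crot, a peroxisomal carnitine acyltransferase, had a change of -0.26 at 1 day (-0.45 to -0.07). Pdp1, a phosphatase that switches the pyruvate dehydrogenase complex on, had one of 0.27 at 10 days (0.02 to 0.52). Between the times, 10 days minus 1 day, Me1, the cytosolic malic enzyme, had a change of -0.16 (-0.29 to -0.03), Acss2, which makes acetyl-CoA from acetate, one of -0.12 (-0.23 to -0.02), and 1 of the 2 probes of Hmgcs1, of cholesterol synthesis, one of 0.14 (0.02 to 0.27). The other Hmgcs1 probe, M400003968, had a change of 0.02 (-0.09 to 0.13) in the same comparison.

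Idh3g, the member with the widest range, had SDs within groups of 0.25 (1 day), 0.30 (10 days) and 0.26 (control). Its group means were 11.27, 11.09 and 11.20 in the same order. How the spread of the members as a list divides between and within groups was not computed. Each sample's description opens with a number from 1 to 8 that alternates between the groups, and whose meaning the labels do not give. Arrays labelled replicate 1 have 1 to 3, those of replicate 2 have 4 to 6, and those of replicate 3 have 7 and 8. A trend with the description number and a difference between replicate labels therefore overlap. With group and the description number in 1 limma fit, a step added after seeing the data, the slope on the number had an unadjusted p under 0.05 for 10 of the 44 members, against 10.9% of all tested probes. None passed the adjusted threshold, nor did any probe of the array (0%). The smallest adjusted p on the array was 0.198 by limma. Mdh1, with an unadjusted p of 0.00085, shared this value with other probes and was not singled out by it. Of the 10, 8 rose with the number (Mdh1, Idh3a, Idh3g, Fh1, Dlat, Dlst, Acadvl and Pdk4), against 5.46% of all, and 2 fell (Pcx and Ogdh), against 5.39%. Of the 44 slopes, 28 were above 0, against 47.1% of all tested probes, but this depended on the scaling: 19 were above 0 after median scaling, against 48.9% of all, and 17 in the authors' table, against 41.2%.

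Idh3g had the steepest slope, 0.088 on the log2 scale per step (SE 0.016, adjusted p = 0.207 by limma). In the order of the number it measured 11.05, 10.74, 11.02, 11.21, 11.28, 11.38, 11.55 and 11.25. Mdh1, whose product works in the malate-aspartate shuttle, measured 13.36, 13.21, 13.27, 13.42, 13.39, 13.49, 13.56 and 13.49 in the same order, with a slope of 0.044 (SE 0.0078, adjusted p = 0.198). Both had their lowest array at number 2, trehalose 10 days replicate 1, and their highest at number 7, trehalose 1 day replicate 3. Fh1 did so as well, with 9.10 and 9.55. Pcx fell with the number, by 0.044 per step (SE 0.011, adjusted p = 0.245). Trehalose 10 days replicate 1 held the lowest value of 10 of the 44 members and the highest of 10, against 13.4% and 13.5% of all tested probes. With the number in the fit, the changes of Idh1 were 0.24 at 1 day and 0.21 at 10 days, and that of Dld at 10 days was 0.17.

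**Figure D4:**
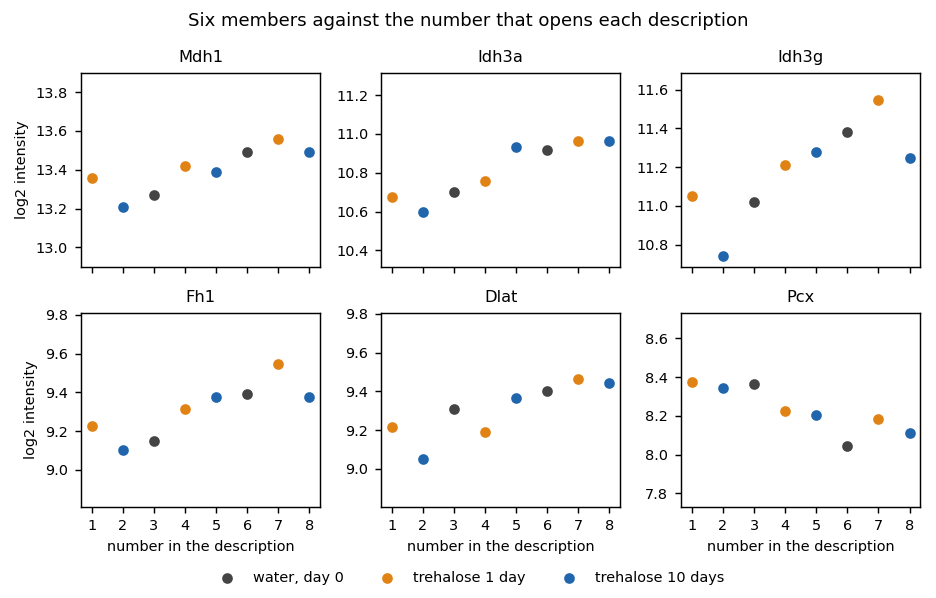
Log2 intensity of the 6 members with the lowest p for the slope, against the description number (1 to 8), coloured by group, on axes that each span 1 log2 unit. Mdh1, Idh3a, Idh3g, Fh1 and Dlat lie higher at numbers 5 to 8 than at 2 and 3, and Pcx lies lower, with all 3 groups on each trend.

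All 8 probes of cortical excitatory neuron genes lay above the blank limit on all 8 arrays. So did those of astrocytes (8), microglia (8) and oligodendrocytes (6), and those of striatum (7), hypothalamus (5) and choroid plexus and ependyma (5). On each array 86.3% to 92.1% of all probes passed this limit, so passing it does not identify the tissue. Of the cortical neuron probes, 1 of 8 was higher than control at 1 day and 2 of 8 at 10 days. Markers of regions next to cortex differed between arrays. The summed linear intensity of 7 striatum probes ranged from 7808 to 11144 in control, from 3936 to 10986 after 1 day, and from 8020 to 8924 after 10 days, and trehalose 1 day replicate 2 was the lowest array. Thalamus markers were higher than control in 7 of 8 tested probes at 1 day and in all 8 at 10 days, with median log2 changes of 0.20 and 0.19. Hypothalamus markers were higher in 4 of 5 at each time (medians 0.24 and 0.05), and their largest median deviation, 0.58, was in trehalose 1 day replicate 2. Choroid plexus and ependyma markers were higher in 4 of 5 at 1 day and 5 of 5 at 10 days (0.12 and 0.14). Their median deviations ran from -0.22 to 0.22 at 1 day and from 0.03 to 0.08 at 10 days, against -0.15 and 0.02 in control. Both blood probes were higher at each time (0.45 and 0.16), with deviations from -0.62 to 0.61 at 10 days, against 0.06 and -0.51 in control. Astrocyte markers were higher in 4 of 8 at 1 day and 5 of 8 at 10 days. Oligodendrocyte markers were higher in 2 of 6 and 3 of 6, and microglia markers in 3 of 8 and 2 of 8. Interneuron markers were higher in 1 of 7 at 1 day and 2 of 7 at 10 days (-0.12 and -0.06), endothelium markers in 1 of 5 and 2 of 5 (-0.14 and -0.02), and striatum markers in 0 of 7 and 3 of 7 (-0.34 and -0.11). The part of these markers in the members' differences was not tested. Without trehalose 1 day replicate 2, the change of Idh1 at 1 day was 0.20, that of Acadm 0.12, that of Acat1 0.12 and that of Pdk1 -0.23. In such bulk tissue, fewer cells of a type and less RNA per cell cannot be told apart.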

How the data were processed

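RNA of mouse brain was read on 8 one-colour arrays, 1 per mouse. Per the file headers, the deposited scanner values are an intensity per spot, the median of its pixels, with readings at 3 gains combined by line fits, and the software is not given in the sources used here. A further table of the authors, deposited as a linear intensity per probe, was linear in those medians with its zero near the blank mean, and served as an alternative. Genes were named from the platform annotation, updated through gene identifiers. Of the 44 members, 43 had an identifier in the mouse reference table.

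Spot medians were corrected with limma 3.58.1 in R 4.3.3 by normexp with an offset of 50, spots flagged at any gain were left out (10 probe spots), and arrays were quantile normalised on the log2 scale. Probes above the blank mean plus 2 SD on at least 2 arrays were tested, 21583 in all. On each array 86.3% to 92.1% of the probes lay above that limit. The number of arrays limits the precision. All 8 arrays entered 1 limma fit with 3 groups, which left 5 residual degrees of freedom, with Benjamini-Hochberg adjustment over all tested probes and a threshold of 0.05. P-values measure the spread between these mice. The fit was also run on simulated data with independent noise and added changes larger than any measured for a member. That run does not show what the fit can find at the size of the members' changes.

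The members, the gene lists and the rule for named genes were chosen with earlier results of these data known. The rule asked for values of every member, and for full statistics of the member with the lowest p in each role and comparison. It asked for the same for members at an unadjusted p under 0.05, and for Pdk4, Cpt1a, Cpt1c, Oxct1, Bdh1, Cs, Pdha1 and Pcx. The rule was not followed in full: some of these are given without a change, an interval or a p-value, mainly between the times. Replicate numbers were tried as a block in an alternative fit, and the labels do not say that they pair mice. Other settings for background, normalisation, filter, variance and left-out arrays are given in the closing section.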

Additional observations from a re-analysis of the deposited data

Results flagged for a closer look

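Pdhb was the only member whose 3 arrays at 1 day all lay on one side of both controls and whose 3 arrays at 10 days all lay on the other. Its log2 change at 10 days minus 1 day was 0.139, and the difference between the times had an adjusted p of 1.00 by limma. It was -0.37 with the local background column. How many of all tested probes have this pattern around the controls was not counted. Groups did not overlap for 18.2% of all tested probes at 1 day against control and for 13.4% at 10 days. Groups of 2 or 3 arrays are too small for a check for single stray arrays.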

How the results depend on the processing

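The 11 changes of single members at an unadjusted p under 0.05 had no adjusted p below 0.675 under any of the 23 other settings, and 8 of the 11 had 1 sign throughout, among them all 3 of Idh1. With the local background column, Acat1 at 1 day turned to -0.76, and at 10 days minus 1 day Dld turned to -0.18 and Pdhb to -0.37. That setting turned the sign of 20 of the 44 members at 1 day, 18 at 10 days, 23 between the times and 22 for both times together, and raised the change of Idh1 to 0.72, 0.74 and 0.73 and that of Acadm at 1 day to 0.49. The authors' table turned 7, 4, 16 and 2 signs in the same order. The local background column also moved the members' median change to -0.085 at 1 day, -0.073 at 10 days and -0.13 for both times together. The authors' table moved it to -0.054 at 1 day, 0.043 at 10 days and 0.070 between the times, where the medians of all probes were -0.053, 0.026 and 0.079. Over all probes, 1 passed the adjusted threshold after subtraction of the blank mean at 10 days, between the times and for both times together, and 1 with trend and robust variances at 10 days and between the times, none of them a member (the lowest adjusted p of a member under any setting was 0.465, for Pcx between the times with the local background column). Leaving out 1 array gave 0 to 2 such probes in each comparison with control, 2 of them without control replicate 1, and moved the members' median between -0.023 and 0.0094 at 1 day, -0.0088 and 0.017 at 10 days, -0.026 and 0.0028 between the times, and -0.0048 and 0.025 for both together. Of the 7 pairs of arrays with the same replicate number, 6 deviated together (correlation across probes 0.120 to 0.263, including all 4 pairs with a control). The other pair did not (trehalose 10 days and 1 day replicate 2, -0.0247). Pairs with different replicate numbers ran from -0.315 to 0.213. These values do not decide whether arrays with the same number share a batch or pair mice. The labels do not say so, and the block was kept as an alternative. With 2 controls, their deviations mirror each other. With the replicate block the change of Idh1 was 0.24 at 1 day and 0.22 at 10 days, no probe passed the adjusted threshold, and between the times 1138 probes had an unadjusted p under 0.05, against 756 without it. Members at an unadjusted p under 0.05 numbered 1 to 5 at 1 day, 1 to 5 at 10 days, 0 to 5 between the times and 1 to 4 for both together over these settings, and all probes 365 to 1503, 218 to 1113, 567 to 1595 and 212 to 1240. For the slope on the number, 19 of 44 members lay above 0 with median scaling and 17 in the authors' table, against 28 as reported, and members at that level numbered 2, with the local background column, to 13, without trehalose 10 days replicate 2 or 3. The causes were not tested. Dim probes such as Pdk4 and Acads limit what a small change can show.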
